A study of Mus musculus with 88 samples.

Results

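Embryoid bodies of the line labelled Mtf2 null were compared with embryoid bodies of the wild-type line Pcl1-3 wt at days 2, 4, and 7 of differentiation. The comparison holds 6 of the 88 samples of the series, 3 a side, and takes every bulk RNA sample of both lines at those days. The Mtf2 null line (strain label mtf2ko) is a gene trap line, and Pcl1-3 wt (strain label pclwt-mtf2wt, genotype Mtf2 WT) is named as its background-matched wild type. Both are mouse embryonic stem cell (ESC) lines grown in serum with leukemia inhibitory factor (LIF), which holds ESCs in the undifferentiated state. Cells were aggregated for 2 days with LIF, LIF was then withdrawn, and harvested bodies were dissociated and sorted for viable cells before polyA RNA was taken. Day 0 of the line was left out because its label is in doubt. There is 1 line per genotype, so that genotype and line cannot be told apart, and p-values measure only the spread between these samples.

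Polycomb Repressive Complex 2 (PRC2) places methyl groups on lysine 27 of histone H3 and holds developmental genes silent in ESCs. Its core, built from EZH2 or EZH1, EED, SUZ12, and RBBP4 or RBBP7, is recruited in alternative forms. PRC2.1 contains one of the Polycomb-like proteins PHF1, MTF2, and PHF19, of which MTF2 is the main one in ESCs and binds unmethylated CG-rich DNA, while PRC2.2 contains JARID2 and AEBP2. Many of the genes it holds silent encode transcription factors and signaling proteins of the germ layers.

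Reads per sample ran from 6250863 (Pcl1-3 wt, day 4) to 30457254 (labelled Mtf2 null, day 2), and 1 CPM, the unit of reads scaled to the sample's total, was about 6.25 reads in the shallowest sample. Of 26007 genes, 14273 had at least 1 CPM in 3 of the 6 samples and were tested with limma on log2 CPM values with day as a block. The core ESC factor Pou5f1 was at 947, 366, and 204 CPM in the labelled Mtf2 null samples of days 2, 4, and 7 and at 641, 386, and 441 CPM in Pcl1-3 wt, so that it was still detected on both sides at day 7. Values of a gene are given in CPM in the order of days 2, 4, and 7, and a fold change is the log2 difference of the labelled Mtf2 null minus Pcl1-3 wt with its standard error (SE).

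The targeted gene was examined first. Mtf2 (chromosome 5, 108065674 to 108109004, GRCm38) was at 217, 224, and 156 CPM in the samples labelled Mtf2 null and at 415, 319, and 382 CPM in Pcl1-3 wt. Every labelled Mtf2 null sample was below every Pcl1-3 wt sample, and the difference of -0.91 ± 0.21 SE (log2) missed the threshold of 0.05, with limma's adjusted p = 0.051. Undifferentiated Mtf2 null cells from another experiment of the series had 30.1 to 34.2 CPM against 369 to 485 CPM in wild-type E14 cells (n = 4 libraries each). The bulk samples are therefore called "labelled Mtf2 null" throughout.

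The transcripts of the listed PRC2 subunits, Mtf2 among them, did not pass the test in either direction. Of 15 listed genes 14 were tested, 0 were called by limma, and the median fold change was -0.12, while 4348 of all genes had an unadjusted p under 0.05 and 9.24% were called. Ezh2, a catalytic subunit, was at 187, 195, and 191 CPM against 129, 114, and 119.6 CPM, a difference of 0.65 ± 0.16 (adjusted p = 0.055). Its paralogue Ezh1 was at 35.8, 70.6, and 61.5 CPM against 57.2, 146, and 83.1 CPM (-0.71 ± 0.18, adjusted p = 0.060). The groups did not overlap for Ezh2, Suz12, or Mtf2, and they overlapped for Ezh1. Of all tested genes, 12.1% had no overlap with the labelled Mtf2 null above and 11.9% with it below. The core subunit gene Suz12 was at 456, 442, and 289 CPM against 586, 819, and 803 CPM. Jarid2, of PRC2.2, differed by 0.01 ± 0.22, and the Polycomb-like genes Phf1 and Phf19 by -0.01 ± 0.28 and -0.12 ± 0.23.

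**Figure D1:**
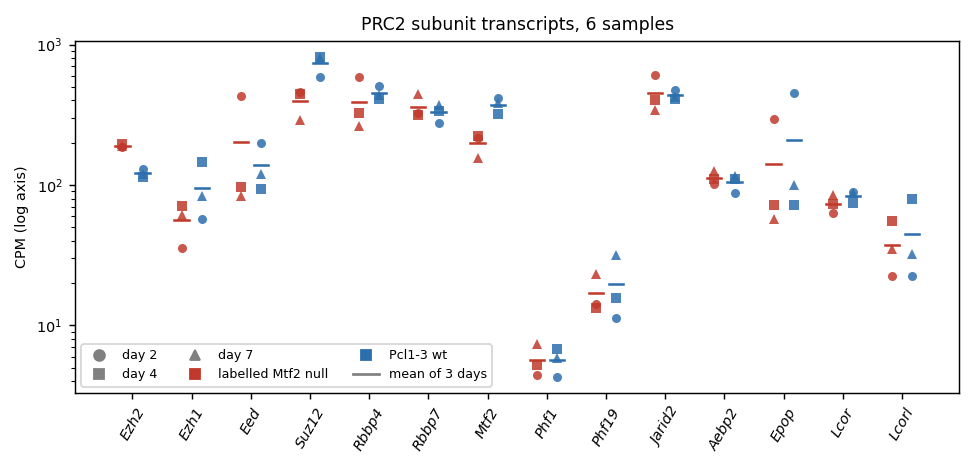
CPM (log axis) of the 14 tested PRC2 subunit genes in each of the 6 samples, with the marker shape for the day, the color for the line, and a bar at the mean of 3 days. Mtf2 in the samples labelled Mtf2 null lay between 156 and 224 CPM, below the lowest Pcl1-3 wt value of 319 CPM.

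Across all genes, 836 were higher (5.86% of those tested) and 483 lower (3.38%) in the labelled Mtf2 null embryoid bodies at limma's adjusted p under 0.05. The higher genes had a median fold change of 1.79 and the lower genes of -1.12, with a median of -0.003 over all tested genes. In 221 of the higher genes the mean of Pcl1-3 wt was below 1 CPM, and 32 had no read in any Pcl1-3 wt sample. Leaving out day 4 reduced the calls to 394 higher and 83 lower, leaving out day 2 raised them to 1919 and 1498, and a fit without the day block made 86 and 12. The counts given below for gene lists are to be read beside these shares and totals of all tested genes.

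Pseudogenes and copies of other genes led the list of higher genes. Of the 836, 83 were annotated as pseudogenes, as were 18 of the 483 lower genes and 637 of all 14273 tested. Among the 12 named genes with the largest increase 7 were annotated as pseudogenes and Eno1b is an enolase copy. The ribosomal protein copy Rps3a3 was at 458, 648, and 548 CPM against 0.728, 0.654, and 1.43 CPM in Pcl1-3 wt. The enolase copy Eno1b was at 385, 1235, and 1086 CPM against 0.932, 2.1, and 0.96 CPM, a difference of 8.95 ± 0.29 (limma, adjusted p = 0.00017). Rpl34-ps1 had 0 reads in the 3 Pcl1-3 wt samples and 167, 221, and 289 CPM in the others, which is at least 1864-fold higher than a floor of 3 reads over the group. The 3 samples of each line were alike for these copies and the lines did not overlap. Such copies are nearly identical to their parent genes, reads can be split between them, and their levels are uncertain. In undifferentiated cells the direction was the opposite: Eno1b was at 0 to 10.7 CPM in 4 Mtf2 null libraries and at 920.3 to 1487 CPM in 4 of E14. In the Jarid2 null embryoid bodies the direction was that of the labelled Mtf2 null, with Eno1b at 1282 to 1799 CPM against 0 to 3.81 CPM in its wild-type line JM8, and Eno1b was high in the Eed null (1102 to 1742 CPM) and in its wild type J1 (1036 to 1759 CPM) alike. Whether the bulk libraries come from the same Mtf2 null line as the undifferentiated cells was not tested. Of the 24 lists, only glycolysis holds one of these copies, Eno1b.

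Transcription factors of endoderm were higher. Gata4, a zinc finger factor that drives primitive endoderm and heart (chromosome 14, 63198922 to 63271692, minus strand), was at 12.3, 37.7, and 59.3 CPM in the labelled Mtf2 null samples and at 0.485, 0.159, and 3.3 CPM in Pcl1-3 wt. Its relative Gata6, which acts earliest in primitive endoderm, was at 9.15, 7.43, and 28.1 CPM against 0.728, 0.977, and 2.95 CPM. For both genes each labelled Mtf2 null sample exceeded each Pcl1-3 wt sample, with differences of 4.69 ± 0.49 and 2.91 ± 0.30 (limma, adjusted p = 0.011 and 0.011).

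Factors that act with the GATA proteins in endoderm differed in the same direction. Sox7, of the SOX family, was at 4.18, 4.28, and 7.37 CPM against 0.219, 0.164, and 0.0923 CPM, and its relative Sox17 at 3.67, 4.98, and 8.92 CPM against 0.219, 0, and 3.14 CPM. Hnf4a, a nuclear receptor of visceral endoderm and liver, was at 1.71, 21.1, and 31.6 CPM against 0.571, 0.327, and 1.14 CPM. Hnf4a was low on both sides at day 2, with a log2 ratio of 1.14, and far above Pcl1-3 wt at days 4 and 7, whereas Sox7 was far apart at all 3 days. Foxa2, a factor that opens chromatin in endoderm, was at 1.55, 7.33, and 10.2 CPM against 0.11, 0.323, and 3.4 CPM, and its day 7 value in Pcl1-3 wt exceeded the day 2 value of the labelled Mtf2 null. In all, 8 of 14 members of the definitive endoderm list were higher (5.86% of all tested genes) and 0 lower, with a median fold change of 2.29 where all genes had -0.003. Of the 14, 1 passed the filter only through the labelled Mtf2 null, and 5 were higher without day 4. The 6 that were not called hold both genes of the epithelial surface, Epcam and Cdh1, and Foxa3, Hhex, Cxcr4, and Cldn6, with fold changes between -0.14 and 0.81. Because the samples are bulk RNA, fewer cells of a type and less RNA per cell cannot be told apart.

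Products of extraembryonic endoderm, the yolk sac layers that surround the embryo and supply it, had large differences. Cubn encodes cubilin, the receptor with which visceral endoderm takes up proteins and vitamins (chromosome 2, 13276338 to 13491813, minus strand). It was at 43.2, 305, and 458 CPM in the labelled Mtf2 null samples against 1.57, 0.159, and 1.27 CPM in Pcl1-3 wt, a difference of 7.26 ± 0.83 (limma, adjusted p = 0.013). The lowest labelled Mtf2 null sample, of day 2, lay far above the highest Pcl1-3 wt sample. Dab2, the adaptor that carries cubilin's cargo into the cell, was at 20.1, 193, and 227 CPM against 3.0, 16, and 23.7 CPM, higher at each day, with the day 2 value of the labelled Mtf2 null inside the range of Pcl1-3 wt. Amn, the membrane partner of cubilin, was at 1.6, 10.9, and 11.3 CPM against 1.49, 1.13, and 0.517 CPM and was not called (adjusted p = 0.092).

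Secreted proteins of the yolk sac and liver appeared from day 4. Ttr, a thyroid hormone carrier, was at 1.48, 61, and 187 CPM against 0, 0, and 0.277 CPM, and Pcl1-3 wt had 3 reads in all, so that the ratio of the groups had a counting interval of 156 to 2217. The fibrinogen chain gene Fgb was at 1.15, 8.08, and 45 CPM and had 0 reads in Pcl1-3 wt, at least 149.6-fold higher. Apob, of lipoprotein particles, was at 6.43, 1008, and 2139 CPM against 2.76, 1.29, and 5.15 CPM, and Afp, the fetal counterpart of albumin, at 1.4, 297, and 1322 CPM against 0.485, 0.164, and 0.0923 CPM. Both were far higher at days 4 and 7 and higher by a much smaller ratio at day 2, and neither was called (adjusted p = 0.052 and 0.059). Apoa1 stayed below the filter with 0.46, 49.2, and 191 CPM against 0.11, 0.318, and 0.397 CPM.

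The collagen IV chains of basement membrane, which parietal endoderm makes in quantity, were present in both lines and higher in the labelled Mtf2 null. Col4a1 was at 265, 549, and 1021 CPM against 27.8, 26.1, and 128 CPM, and its partner chain Col4a2 at 129, 295, and 581 CPM against 9.78, 13.5, and 102 CPM. Both differed by about the same amount, 3.54 ± 0.29 and 3.53 ± 0.35 (limma, adjusted p = 0.0059 and 0.010), and the groups did not overlap. The receptor gene Pdgfra, which marks primitive endoderm as well as early mesoderm, was at 14.9, 12.3, and 63.8 CPM against 0.79, 0.482, and 2.0 CPM (4.12 ± 0.32, adjusted p = 0.0057). Of 22 members of the extraembryonic endoderm list 18 were tested, 11 were higher, 0 were lower, and the median fold change was 2.83. Among the tested, 3 passed the filter only through the labelled Mtf2 null. Without the filter, 12 of the 22 had groups that did not overlap with the labelled Mtf2 null above, which 11.1% of all genes with a read had. The summed level of the list ran from 1660 to 8006 CPM in the labelled Mtf2 null and from 869.6 to 1016 CPM in Pcl1-3 wt, and Rhox5 had no read on either side. Over all tested genes 5.86% were higher, 836 genes, and 1919 without day 2. Of 24 collagens and laminins 22 were tested, 6 were higher (15 without day 2), among them Col4a5 and Col6a1, and 16 were not called. At day 2 their summed level was lower in the labelled Mtf2 null, at 3100 CPM against 3858 CPM.

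**Figure D2:**
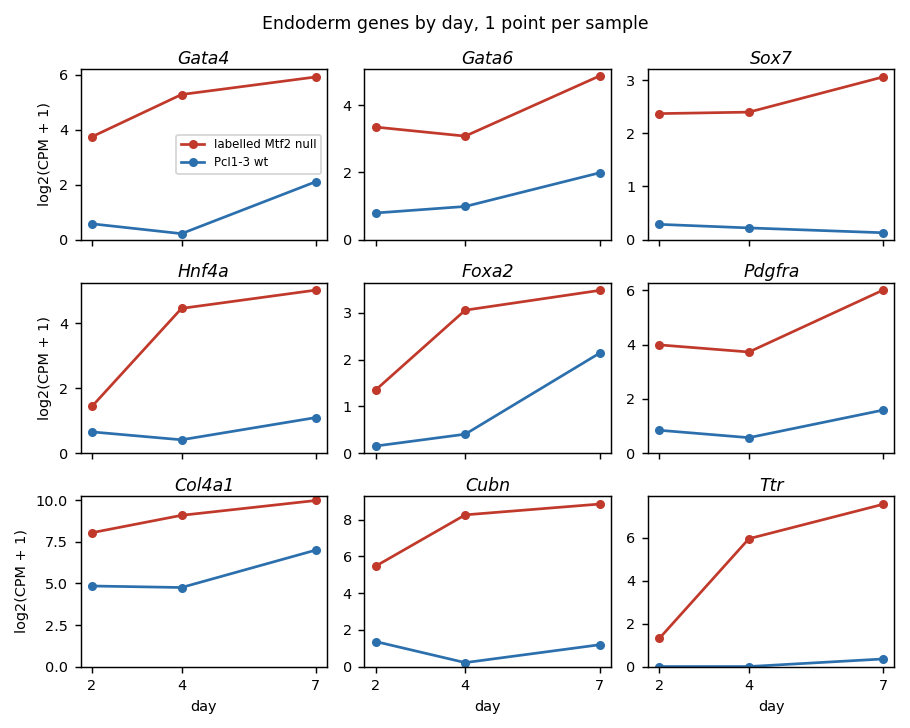
Level of 9 endoderm genes as log2(CPM + 1) at days 2, 4, and 7, with 1 point per sample and no error bars because each day has 1 sample per line. In all 9 panels the labelled Mtf2 null lay above Pcl1-3 wt at every day, with Ttr from 1.48 CPM at day 2 to 187 CPM at day 7.

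MTF2 binds CG-rich DNA, and the promoters of these genes differ widely in their CG content. RefSeq windows (GRCm38.p6) from 250 bases before to 50 after the annotated start are printed 5′ to 3′ on the gene's strand, with each CG in capitals. Col4a1 and Col4a2 lie head to head on chromosome 8 and their windows share 78 bases.
Col4a1, chr8:11312777-11313076, minus strand: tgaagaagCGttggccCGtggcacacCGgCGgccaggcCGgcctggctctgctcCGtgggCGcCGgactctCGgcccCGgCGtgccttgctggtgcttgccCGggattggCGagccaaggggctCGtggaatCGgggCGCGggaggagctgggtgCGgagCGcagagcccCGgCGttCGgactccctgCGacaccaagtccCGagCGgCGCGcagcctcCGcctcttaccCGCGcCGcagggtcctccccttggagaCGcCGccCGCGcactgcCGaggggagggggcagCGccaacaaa
Col4a2, chr8:11312555-11312854, plus strand: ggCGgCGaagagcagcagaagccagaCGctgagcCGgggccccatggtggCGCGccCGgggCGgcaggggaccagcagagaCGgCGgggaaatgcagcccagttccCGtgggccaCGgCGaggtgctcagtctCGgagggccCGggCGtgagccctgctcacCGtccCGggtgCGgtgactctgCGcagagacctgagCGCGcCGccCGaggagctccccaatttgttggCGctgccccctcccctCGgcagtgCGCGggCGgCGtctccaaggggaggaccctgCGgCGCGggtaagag
Cubn, chr2:13491827-13492126, minus strand: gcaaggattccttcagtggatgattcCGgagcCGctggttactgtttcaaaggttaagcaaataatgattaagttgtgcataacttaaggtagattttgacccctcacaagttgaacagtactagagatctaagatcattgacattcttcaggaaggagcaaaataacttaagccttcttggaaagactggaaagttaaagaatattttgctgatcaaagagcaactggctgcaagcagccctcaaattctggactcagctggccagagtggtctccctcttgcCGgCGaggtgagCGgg
The Col4a1 window holds 37 CG and the Col4a2 window 33, numbers that 5.37% and 8.27% of all 27025 first windows of a gene reach. The Cubn window holds 5, which 61.7% of windows reach, and the median window holds 7. A CG lies in 94.2% of all windows. Genes of both kinds were higher, and no comparison over the called genes was made, because a window was matched for 533 of the 836 higher genes (63.8%), too few for such a check.

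Cardiac and other mesoderm genes were higher in part. Hand1, a helix-loop-helix factor of heart, amnion, and yolk sac mesoderm, was at 18.8, 32.6, and 124 CPM against 0.133, 0.959, and 27.1 CPM (4.02 ± 0.58, limma, adjusted p = 0.022). It was abundant in Pcl1-3 wt only at day 7, where the labelled Mtf2 null was still higher. Tbx20, a T-box factor of the heart, was at 8.73, 15.5, and 33.5 CPM against 2.73, 8.23, and 8.81 CPM, and the myosin gene Myh6 at 2.15, 4.67, and 6.82 CPM against 0.571, 0.959, and 0.665 CPM. Of 20 members of the cardiac list 12 were tested and 6 were higher (3 without day 7), against 5.86% of all tested genes. The contractile genes Myl7 and Tnnt2 differed by 0.13 and 0.07 and were not called, Actc1 did not reach the filter, and Bmp10 had no read. Gata4 and Gata6 belong to this list too.

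Mesenchymal genes had few calls, and of all tested genes 5.86% were higher, 836 with every day and 1919 without day 2. Of 20 listed, 13 were tested and 2 were higher (8 without day 2), Pdgfra and the matrix gene Postn, at 1.17, 2.11, and 34.4 CPM against 0, 0, and 2.12 CPM. Col3a1, a fibrillar collagen of connective tissue, was below the filter, with 0.0277, 0.294, and 64.6 CPM against 0, 0, and 1.88 CPM, and Prrx1, a homeobox gene of limb and head mesenchyme, with 0.25, 0.977, and 23 CPM against 0.243, 0, and 0.332 CPM. Both were apart from Pcl1-3 wt at day 7 alone. The summed level of the list ran from 96.8 to 830.5 CPM in the labelled Mtf2 null and from 91.5 to 216.4 CPM in Pcl1-3 wt, and the fibroblast genes Lum and Dcn stayed under 2 CPM in every sample.

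The primitive streak, the transient source of mesoderm and endoderm, gave 0 calls among 13 tested of 19 members, with a median fold change of 0.72. Brachyury (T) was at 0.444, 10.2, and 3.78 CPM against 0.243, 0.968, and 2.08 CPM, Eomes at 10.9, 32.7, and 12 CPM against 6.41, 11.8, and 18.8 CPM, and the homeobox gene Mixl1 at 0.963, 5.62, and 1.77 CPM against 1.37, 0.645, and 1.77 CPM. All 3 peaked at day 4 in the labelled Mtf2 null and at day 7 in Pcl1-3 wt. At day 7 Eomes was lower in the labelled Mtf2 null and Mixl1 was level with Pcl1-3 wt, so that a mean over 3 days does not describe them (fold changes 1.38 ± 0.56, 0.52 ± 0.40, and 0.72 ± 0.62). There was 1 sample per line and day, and the difference in timing was not tested. Lefty1 and Lefty2, the members with the highest mean CPM, did not follow this order. Lefty1 was at 53.2, 53.7, and 11 CPM against 142, 40, and 53 CPM. Lefty2 was at 277, 188, and 42.7 CPM against 301, 41.9, and 99.9 CPM. Both were highest at day 2 in Pcl1-3 wt. Over the list, the median log2 ratio was 0.61 at day 2, 1.68 at day 4, and -0.37 at day 7.

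Few endothelial and blood genes were called, and those went both ways. Gata2, a factor of blood stem cells and trophoblast, was at 12.3, 31.2, and 88.3 CPM against 3.15, 1.94, and 14.8 CPM (2.72 ± 0.38). Tek, the angiopoietin receptor, was at 6.62, 1.79, and 2.18 CPM against 34.7, 11.3, and 19.3 CPM (-2.57 ± 0.26), and Pecam1, an adhesion molecule of endothelium and ESCs, at 51.4, 29.7, and 33.2 CPM against 106, 89.1, and 126 CPM (-1.51 ± 0.21). Both lower genes were below Pcl1-3 wt without overlap, as were 11.9% of all tested genes, and limma's adjusted p was 0.011 and 0.020. Of 16 members 12 were tested, 1 was higher, and 2 were lower, and the embryonic globin genes were at or near 0 on both sides. Among all tested genes 5.86% were higher and 3.38% lower.

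Hox genes, which pattern the body axis and are classical PRC2 targets, were almost silent in Pcl1-3 wt. Hoxa10 had 0 reads there and 3.0, 4.62, and 10.9 CPM in the labelled Mtf2 null, at least 51-fold higher. Hoxd13 was at 4.67, 6.59, and 12.6 CPM against 0.947, 0.318, and 0.369 CPM. The groups did not overlap for either gene, and the labelled Mtf2 null was highest at day 7. Only 10 of 39 Hox genes reached the filter, 8 of them were higher (5 without day 7), and 8 passed through the labelled Mtf2 null alone, so that this count says little by itself. Without the filter, 35 of the 39 were higher in the labelled Mtf2 null at each of the 3 days and 31 had groups that did not overlap, where all genes with a read gave 23.4% and 11.1%. None of the 39 had groups that did not overlap with Pcl1-3 wt above, which 7.98% of all genes had. Their summed level was 32.1, 70.4, and 171 CPM in the labelled Mtf2 null and 4.52, 7.08, and 6.19 CPM in Pcl1-3 wt. The labelled Mtf2 null sample was the deeper of the pair at days 2 and 4 and the shallower at day 7, where the gap was widest.

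Partners of the Hox proteins were higher as well. The cofactor genes Meis1 and Meis2 were at 2.97, 13.5, and 52.3 CPM against 0.97, 0.645, and 4.32 CPM and at 4.34, 18, and 68.1 CPM against 1.02, 1.78, and 12.8 CPM, with differences of 2.86 ± 0.52 and 2.41 ± 0.33. Msx2, a homeobox target of BMP signaling, was at 2.28, 10.3, and 33.3 CPM against 0.79, 1.79, and 8.19 CPM. In the whole test 5.86% of genes were higher and 3.38% lower, and without day 2 the higher genes rose from 836 to 1919. Of 42 other developmental regulators 26 were tested, 6 were higher, and 3 were lower, against 13 higher without day 2, 3 higher without day 7, and 0 lower without day 4. The lower genes were Gli1 and Gli2, effectors of Hedgehog signaling, with fold changes of -1.32 and -1.26, and Six4 with -1.13.

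**Figure D3:**
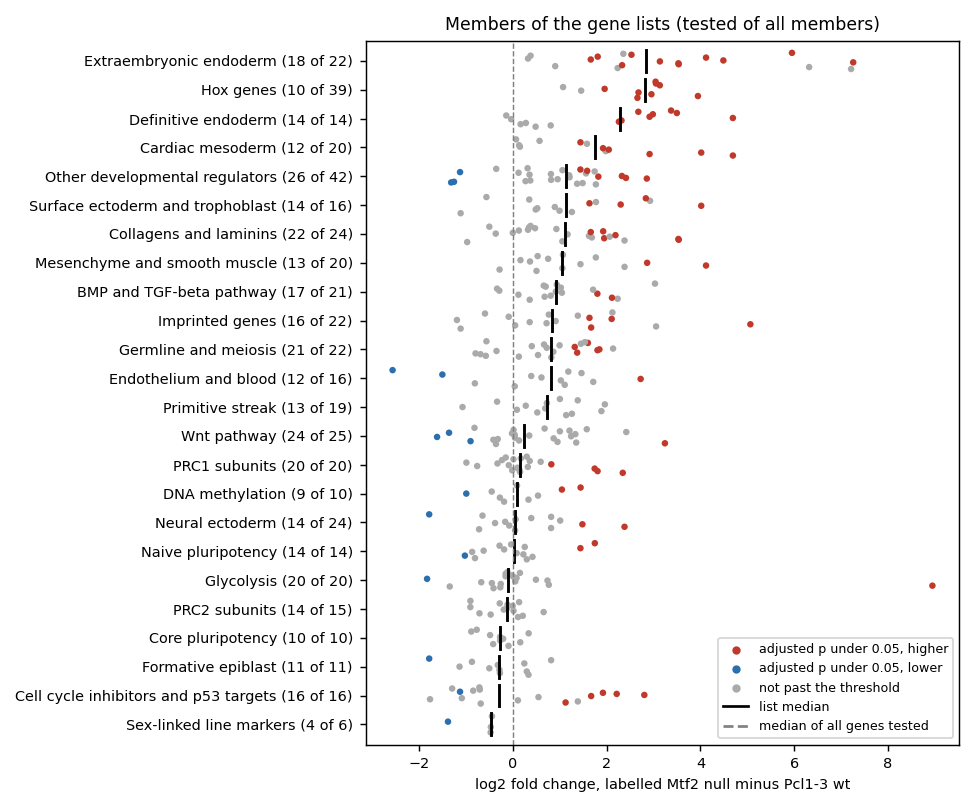
Fold change (log2) of each tested member of the 24 gene lists, ordered by the list's median, with red for higher, blue for lower, and gray for genes past no threshold. The medians of extraembryonic endoderm, Hox genes, and definitive endoderm are 2.83, 2.82, and 2.29, of which 3 of 18, 8 of 10, and 1 of 14 members passed the filter only through the labelled Mtf2 null, where they are high, and the dashed line marks the median of all tested genes at -0.003.

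Ectoderm genes were higher or lower in part, with 9.24% of all tested genes called and 5.86% higher. Of 24 neural genes 14 were tested, 2 were higher, and 1 was lower, and leaving out day 4 or day 7 left 1 higher. The intermediate filament gene Nes was at 37.4, 102, and 81.5 CPM against 14.4, 54, and 17.7 CPM and Lhx2, of eye and forebrain, at 1.1, 4.47, and 8.65 CPM against 0.438, 0.164, and 0.674 CPM. Zic2, a zinc finger factor of epiblast and neural ectoderm, was lower, at 14.3, 42.1, and 16.3 CPM against 60.6, 103, and 66.9 CPM (-1.79 ± 0.21, limma, adjusted p = 0.014). Pax6, of eye and neural tube, was at 1.68, 4.61, and 4.35 CPM against 3.35, 5.64, and 2.67 CPM, and Otx2, of epiblast and forebrain, at 10.9, 70.4, and 23.1 CPM against 1.77, 96.5, and 54.3 CPM. Otx2 was higher in the labelled Mtf2 null at day 2 and lower at days 4 and 7. Of 16 surface ectoderm and trophoblast genes 14 were tested and 4 were higher (8 without day 2), Hand1, Tfap2a, and the keratins Krt18 and Krt19, with Tfap2a at 1.84, 15, and 19.1 CPM against 0.133, 1.62, and 1.43 CPM and Krt18 at 101, 261, and 541 CPM against 6.45, 68.3, and 258 CPM.

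Pluripotency genes mostly did not pass the test. Of 10 core genes 0 were called by limma, with a median fold change of -0.27, and of 14 naive genes 2 were higher and 1 lower. Among all tested genes 5.86% were higher and 3.38% lower. Zfp42 (REX1), a marker of naive ESCs, was at 279, 239, and 98 CPM against 81.2, 43, and 48.9 CPM (1.75 ± 0.28, adjusted p = 0.026). Tbx3, which is also active in endoderm, was at 184, 82.7, and 122 CPM against 96.3, 27.3, and 34.9 CPM, and Klf2 was lower, at 112, 97.2, and 57.1 CPM against 234, 162, and 139 CPM. Nanog was at 806, 337, and 137 CPM against 881, 378, and 685 CPM and Esrrb at 397, 171, and 89.9 CPM against 481, 262, and 261 CPM. Nanog was near Pcl1-3 wt at days 2 and 4 and lower at day 7, and neither gene was called (adjusted p = 0.245 and 0.106). The median log2 ratio of the core list was 0.36 at day 2, -0.26 at day 4, and -1.06 at day 7, and that of the naive list 0.45, 0.27, and -0.78. All genes had 0.08, -0.02, and -0.05.

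Formative genes, which mark the epiblast between the naive state and gastrulation, gave 1 call among 11, Zic2, where 9.24% of all tested genes were called. The methyltransferase gene Dnmt3b was at 273, 342, and 104 CPM against 193, 334, and 269 CPM. Of 22 germline genes 21 were tested, 5 were higher, and 0 were lower, with 0 higher without day 4. Among all tested genes 5.86% were higher and 3.38% lower, and the higher genes fell from 836 to 394 without day 4. The X-linked homeobox genes Rhox6 and Rhox9 were at 49.8, 29.6, and 64.9 CPM against 10.1, 4.53, and 44.7 CPM and at 20, 22.4, and 41.6 CPM against 4.95, 3.2, and 21.7 CPM. Mael, of transposon silencing in germ cells, was at 12.4, 18.2, and 18.5 CPM against 4.38, 7.88, and 6.22 CPM. Dppa3, a marker of primordial germ cells and naive ESCs, was at 63.4, 125, and 78.7 CPM against 99, 97.8, and 273 CPM and was not called, nor was Tex15 at 203, 159, and 89.7 CPM against 34, 47.1, and 72.9 CPM (adjusted p = 0.065).

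Few members of the BMP and Wnt lists of signaling genes were called, and the called Wnt antagonists went opposite ways. Bmp4, a ligand that induces mesoderm and germ cells, was at 46.9, 13.5, and 27.9 CPM against 8.31, 2.26, and 9.65 CPM (2.11 ± 0.27, limma, adjusted p = 0.018). Id1, a direct target of BMP signaling, was at 82.3, 58.6, and 101 CPM against 14.7, 23, and 32.9 CPM (1.80 ± 0.25, adjusted p = 0.020). Both were higher at each day, and these were the only calls among 17 tested of 21 BMP and TGF-beta genes, of which 10 were higher without day 2. Among all tested genes 5.86% were higher and 3.38% lower, and without day 2 the higher genes rose from 836 to 1919. In the Wnt pathway, Dkk1, a secreted antagonist, was higher, at 2.94, 9.45, and 29.1 CPM against 0, 0, and 7.79 CPM. The secreted antagonist Notum was lower, at 19.9, 1.68, and 1.77 CPM against 38.2, 5.96, and 10.2 CPM, as were the nuclear effector Tcf7, at 32, 67.4, and 51.3 CPM against 85.9, 205, and 109 CPM, and the receptor Fzd2, at 5.11, 19.7, and 33.5 CPM against 9.56, 39, and 62 CPM. The Wnt list thus gave 1 higher and 3 lower of 25, with a median of 0.24, and 7 higher without day 2, 1 lower without day 7, and 0 lower without day 4.

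Polycomb genes outside PRC2 and cell cycle inhibitors that Polycomb holds silent were higher in part. Bmi1, a subunit of PRC1 (chromosome 2, 18677018 to 18686629), was at 23.8, 33.7, and 39.1 CPM against 6.13, 5.33, and 6.35 CPM (2.34 ± 0.24, limma, adjusted p = 0.011). The groups were far apart, and 3 further subunit genes of 20, among them Cbx8 and Pcgf5, were higher and 0 were lower. The shares of all tested genes were 5.86% higher and 3.38% lower. Of the 20 genes, 1 was higher without day 4 and 1 without day 7. Cdkn2a, which encodes the inhibitors INK4A and ARF (chromosome 4, 89274471 to 89294653, minus strand), was at 15, 25.7, and 33.6 CPM against 3.15, 1.93, and 4.56 CPM (2.80 ± 0.32, adjusted p = 0.013). Its neighbor Cdkn2b was at 2.61, 6.76, and 13.2 CPM against 0.751, 0.65, and 2.15 CPM. BMI1 is known as a repressor of Cdkn2a, and both genes were higher here. Of 16 genes of the cell cycle list, 5 were higher and 1, Mdm2, was lower (1 higher and 0 lower without day 4, 8 lower without day 2), and the list's median was -0.29. Both promoters are CG-rich, with 23 CG in the Bmi1 window and 45 in the first Cdkn2a window, numbers that 21.6% and 1.88% of windows reach.
Bmi1, chr2:18676768-18677067, plus strand: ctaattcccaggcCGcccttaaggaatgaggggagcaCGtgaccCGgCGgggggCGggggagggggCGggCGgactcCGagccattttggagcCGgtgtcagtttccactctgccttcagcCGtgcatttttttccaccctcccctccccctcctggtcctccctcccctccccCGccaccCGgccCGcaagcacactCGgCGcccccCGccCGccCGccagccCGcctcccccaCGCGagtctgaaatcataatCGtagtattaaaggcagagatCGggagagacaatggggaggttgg
Cdkn2a, chr4:89294570-89294869, minus strand: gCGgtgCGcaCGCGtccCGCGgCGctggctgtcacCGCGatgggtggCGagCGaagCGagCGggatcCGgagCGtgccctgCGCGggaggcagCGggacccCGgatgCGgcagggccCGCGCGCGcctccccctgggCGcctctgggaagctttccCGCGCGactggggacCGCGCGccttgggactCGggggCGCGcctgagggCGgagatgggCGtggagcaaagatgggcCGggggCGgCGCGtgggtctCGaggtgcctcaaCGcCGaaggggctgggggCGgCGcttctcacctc

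Some imprinted genes and some enzymes of DNA demethylation differed. Igf2, a fetal growth factor abundant in endoderm and mesoderm, was at 380.1, 1163, and 3868 CPM against 2.43, 17.5, and 911 CPM (5.06 ± 0.88, limma, adjusted p = 0.028). The ratio narrowed with time, and the day 7 value of Pcl1-3 wt exceeded the day 2 value of the labelled Mtf2 null. Peg10, a retrotransposon-derived gene of placenta, was at 610.4, 1460.1, and 3604 CPM against 77.6, 292, and 1764 CPM. In all 4 of 16 imprinted genes in the table were higher and 0 lower, against 5.86% and 3.38% of all tested genes. Leaving out day 2 gave 9 higher, where the higher genes of the whole test rose from 836 to 1919, and leaving out day 4 gave 2. The oxidase genes Tet3 and Tet2 were at 30.5, 103, and 199 CPM against 15.7, 35.5, and 54.3 CPM and at 439, 145, and 209 CPM against 258, 67.7, and 85.9 CPM, while the glycosylase gene Tdg, which acts after them, was lower, at 123, 75.7, and 61.5 CPM against 161, 172, and 164 CPM. Apart from Eno1b, the 1 glycolysis gene called of 20 was Ldhb, a lactate dehydrogenase subunit, at 78.3, 306, and 172 CPM against 278, 967, and 696 CPM.

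The genes with the largest decreases belong to no single list. The cadherin gene Fat2 was at 2.78, 5.59, and 4.21 CPM against 47.2, 36.5, and 35.9 CPM (-3.18 ± 0.30, limma, adjusted p = 0.0095). Cbr3, a carbonyl reductase, was at 18.7, 4.33, and 1.79 CPM against 45.8, 88.3, and 65.4 CPM, and the lipid phosphatase Inpp5d at 39.9, 7.64, and 7.8 CPM against 84.1, 107, and 88.2 CPM. The lowest Pcl1-3 wt sample exceeded the highest labelled Mtf2 null sample for all 3. The ubiquitin ligase gene Mid1, on the X chromosome, was at 16.2, 20.3, and 22.4 CPM against 76.9, 141, and 93.1 CPM, and its copy on the Y chromosome, Mid1-ps1, at 0.364, 0.183, and 0 CPM against 12.3, 22.4, and 17.1 CPM. Reads of this pair can be shared, so that the value of each is uncertain. The Y-linked gene Kdm5d was lower (-1.39 ± 0.27, adjusted p = 0.035), and the Y-linked genes Eif2s3y and Ddx3y differed by -0.47 ± 0.21 and -0.48 ± 0.16 and were not called.

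The study set the loss of MTF2 beside the loss of JARID2, of PRC2.2. Jarid2 null embryoid bodies of the same days have their own wild-type line, JM8, and share no sample with the comparison above. There, 1182 genes were higher (7.84%) and 980 lower (6.5%) at the same threshold. Of the 836 genes higher in the labelled Mtf2 null, 250 (29.9%, and 21.2% of the Jarid2 null's higher genes) were also higher in the Jarid2 null and 23 (2.75%) were lower. Of the 483 lower genes 148 (30.6%, and 15.1% of the Jarid2 null's lower genes) were lower there and 21 (4.35%) higher. Some endoderm genes were higher in both mutants. Gata4 was higher by 4.69 in the labelled Mtf2 null and 4.72 in the Jarid2 null, Pdgfra by 4.12 and 4.17, and Gata6 by 2.91 and 3.12. In the Jarid2 null 7 definitive endoderm genes were higher and 2 lower, and 10 extraembryonic endoderm genes were higher and 0 lower. A difference between the mutants was called for 1 of 14 definitive endoderm genes. The difference of the 2 effects was -0.03 ± 0.74 for Gata4 and -0.21 ± 0.58 for Gata6, and neither passed the test (limma, adjusted p = 0.985 and 0.866).

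The difference between the mutants' effects was called for 458 genes (3.04%), 265 more positive in the labelled Mtf2 null (1.76%) and 193 more positive in the Jarid2 null (1.28%). Germline genes had more such calls than the other 23 lists, 5 of 21 tested, all more positive in the labelled Mtf2 null. Rhox6 differed by 1.80 in the labelled Mtf2 null and by -3.85 in the Jarid2 null, a gap of 5.65 ± 0.83 (adjusted p = 0.015), and Dppa3 by -0.69 and -4.34, a gap of 3.65 ± 0.58 (adjusted p = 0.021). In both pairs of lines the wild type had its own level of these genes: Rhox6 was at 0.0674, 0.138, and 4.23 CPM in the Jarid2 null and at 22.5, 4.15, and 29.4 CPM in JM8. Nes differed by 1.48 in the labelled Mtf2 null and by -0.54 in the Jarid2 null, a gap of 2.02. Krt19 differed by 1.63 and -1.35, a gap of 2.98, and neither gene was called in the Jarid2 null. The extraembryonic endoderm list gave 0 such calls among 21 tested, and its median fold change was 2.67 in the Jarid2 null. The Hox list gave 0 such calls among 30 tested, with a median of 0.44 and 0 called genes in the Jarid2 null. Leaving out day 4 reduced the 458 calls to 29.

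**Figure D4:**
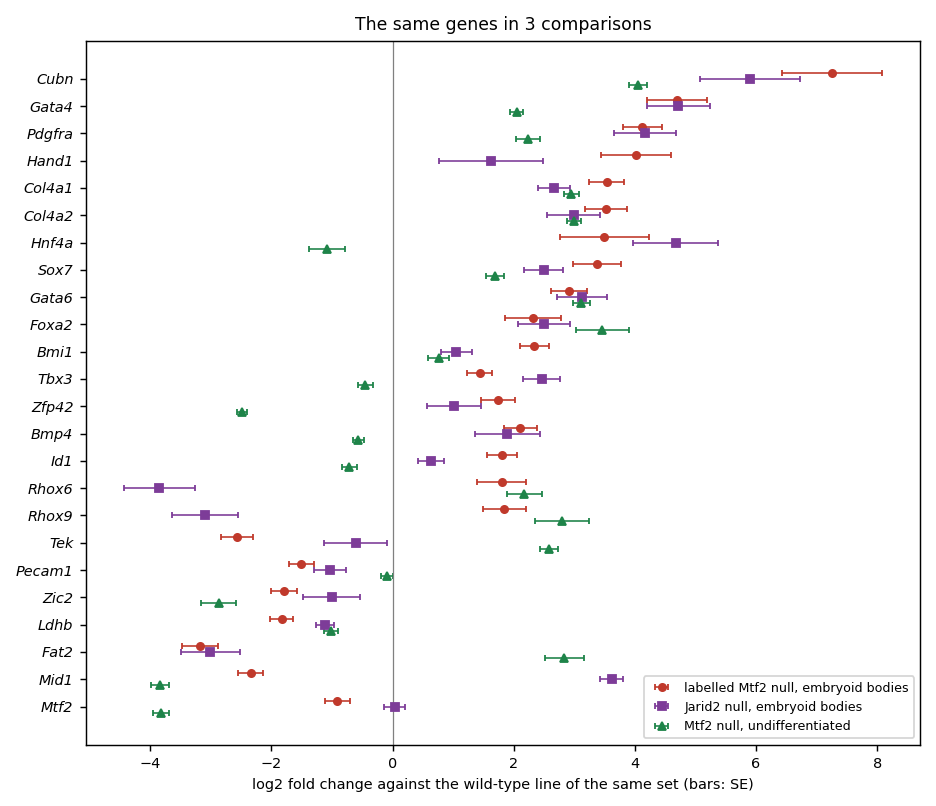
Fold change (log2, bars are SE) of 24 genes in the labelled Mtf2 null embryoid bodies, the Jarid2 null embryoid bodies, and undifferentiated Mtf2 null cells, each against the wild-type line of its own set. Gata4, Gata6, Pdgfra, Cubn, and both collagen IV genes lie to the right in all 3 comparisons, and genes such as Zfp42, Bmp4, Id1, Tek, and Fat2 change side between embryoid bodies and undifferentiated cells.

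Undifferentiated Mtf2 null cells of the directed differentiation series, with E14 as wild type, were an independent set of libraries. Among 15796 genes, 4536 were higher (28.7%) and 4277 lower (27.1%), 55.8% in all, with edgeR's quasi-likelihood test at an adjusted p under 0.05. Of 666 genes higher in the embryoid bodies and tested in both, 252 (37.8%) were higher and 243 (36.5%) lower in the undifferentiated cells, and over all 13060 genes tested in both 32.7% were higher and 27.3% lower. The 252 and 243 genes are 5.9% and 6.82% of the higher and lower genes of the undifferentiated cells. Of 15 extraembryonic endoderm genes tested there 13 were higher and 1 was lower, and of 13 definitive endoderm genes 10 and 1. Gata6 was at 15.4 to 17.8 CPM in Mtf2 null and 1.74 to 2.02 CPM in E14, and Cubn at 162 to 202 CPM and 8.04 to 13.7 CPM. Hnf4a went the other way, at 0.823 to 1.24 CPM against 1.41 to 2.85 CPM. Zfp42 was lower in the undifferentiated Mtf2 null cells, at 66.7 to 72.2 CPM against 348 to 401 CPM, and so were Bmp4 and Id1, with log2 fold changes of -0.57 and -0.71.

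Single-cell libraries of Mtf2 null and wild-type embryoid bodies gave another readout at days 4 and 7, with 1 library per genotype and day and hence no test. They held 316 to 344 kept cells and 2123799 to 2732670 UMIs, molecules counted once each. Wells of 384-well plates carry the same barcodes, and 283 barcodes occurred in both genotypes' libraries at day 4 and 282 at day 7. Mtf2 was at 59.3 and 61.1 UMI CPM in the Mtf2 null libraries of days 4 and 7 and at 442 and 382 UMI CPM in wild type. The copy Eno1b, near 0 in the undifferentiated Mtf2 null cells, was at 1052 and 1085 UMI CPM here and at 1284 and 1059 UMI CPM in wild type. The copy Rps3a3 was at 293 and 246 UMI CPM in the Mtf2 null and at 1599 and 903 UMI CPM in wild type.

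Several endoderm genes of the bulk comparison were not higher in the single Mtf2 null cells. At day 7 Cubn was at 65.9 UMI CPM in wild type (95% exact Poisson interval 55.5 to 77.8, counting error only), and 0 UMIs were found in the Mtf2 null, for which the interval reaches 1.53 UMI CPM. The wild-type mean over cells of the level per cell was 11.4 UMI CPM, so that cells with many UMIs carried the pooled value. Col4a1 was at 142 (126 to 159) UMI CPM in wild type and 59.4 (50.1 to 70) in the Mtf2 null. Gata4 was at 66.4 (55.9 to 78.3) and 47 (38.7 to 56.4) UMI CPM. Some genes, among them the 4 that follow, had the day 7 direction of the bulk samples. Gata6 was at 69.7 (58.9 to 81.9) in wild type and 91.8 (80.1 to 105) in the Mtf2 null, and Foxa2 at 17.4 (12.3 to 24.0) and 27 (20.8 to 34.4). Hand1 was at 132 (117 to 148) and 212 (194 to 232), and Bmp4 at 213 (194 to 234) and 327 (305 to 351). At day 4 Bmp4 was instead lower in the Mtf2 null, at 49.8 (41.8 to 58.9) against 77 (65.7 to 89.7) in wild type. Gata6 was at 2.56 (1.03 to 5.28) against 5.6 (2.89 to 9.79) at that day, and Hand1 at 0.366 against 0. At day 7 Zfp42, higher in bulk, was at 102 (88.6 to 116) UMI CPM in wild type and 15.8 (11.2 to 21.7) in the Mtf2 null. Of 62 named genes called higher in bulk, 7 (11.3%) were higher and 21 (33.9%) lower in the single Mtf2 null cells at both days, and of 20 called lower in bulk, 6 were higher and 10 lower. Over the 15570 genes with a UMI, 27.2% were higher and 26.6% lower at both days. The wild types differ between the experiments, E14 for the single cells and Pcl1-3 wt for the bulk samples, and their part in the result cannot be told apart from that of the mutant lines.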

How the data were processed

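Bulk RNA of the 6 embryoid body samples was sequenced by the authors as 75-bp read pairs on GRCm38/mm10, with Bowtie2, Salmon, and DESeq2 named in the methods and the submitters' processing notes. The bulk values deposited are a signal per gene: the authors scaled the reads of each column by its DESeq2 size factor. Multiplied by their factors, 100% of the values of the 12 columns were whole reads within 0.02. The duplicate columns of a line and day, described as technical, differed by 1.69 to 4.32 times sampling noise and were averaged, so that n is 3 samples a side. Columns held 3005707 to 22944105 reads. Of 26007 gene IDs, 25853 were paired with a symbol through GENCODE M21, which also gave the gene coordinates.

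After TMM scaling (factors 0.82 to 1.19), log2 CPM with a prior count of 2 was fitted with limma 3.58.1 (trend, day as a block, 2 residual and 4.23 prior degrees of freedom, R 4.3.3), with Benjamini-Hochberg adjustment over all 14273 genes that had at least 1 CPM in 3 samples. The prior count makes the fold changes of low genes smaller than they are. The same fit over 12 samples tested the difference from Jarid2 null. For the undifferentiated libraries the authors deposited Salmon's estimated counts, here rounded and fitted with edgeR 4.0.16 with the series as a term. The single-cell values deposited are UMI counts per gene, which the authors had filtered, and they were summed per library. The fits were tested on simulated data.

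The members and gene lists were chosen with earlier results of these data known. Genes were named by rule: all PRC2 subunits, 12 genes with the largest change in each direction (called, changed one way at every day, mean of at least 5 CPM, symbol not of the Gm or Rik form), up to 4 called members per list, and genes the study names for these samples. Other list members named in the text, such as Afp, Apob, Apoa1, Dab2, Amn, Sox17, Tbx20, Col3a1, Prrx1, Gli1, Gli2, and Six4, were chosen after their values were seen. Alternatives were another scaling, prior count, filter, tool, set of lines, and days, single columns, and leaving out each day. Figures were drawn with matplotlib 3.10.9. A few genes are not reported here.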

Additional observations from a re-analysis of the deposited data

Results flagged for a closer look

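The effect of the labelled Mtf2 null on 12 named genes differed from that of the Jarid2 null by a test of the difference itself (limma, adjusted p under 0.05, 458 genes called of 15078). In germline genes the log2 fold change was more positive in the labelled Mtf2 null by 4.94 for Rhox9, 5.65 for Rhox6, 3.65 for Dppa3, and 3.18 for Tex15, and Rhox9 and Rhox6 were also called in the labelled Mtf2 null itself. In lineage genes it was more positive by 2.78 for Myh6, a myosin heavy chain of the heart, by 2.02 for Nes, and by 2.98 for Krt19. It was more negative by -2.89 for Plxdc1, a plexin domain receptor. The Y-linked genes Eif2s3y (-6.10) and Ddx3y (-2.55) were more negative, with fold changes in the Jarid2 null of 5.62 and 2.08, against -0.47 and -0.48 in the labelled Mtf2 null. Eif2s3y was at 3.34, 0.526, and 0.95 CPM in JM8 and at 67.2, 91.7, and 85.1 CPM in the Jarid2 null. Ddx3y was at 25.5, 10.1, and 7.63 CPM in JM8 and at 71.6, 43.9, and 50.7 CPM in the Jarid2 null. Pcl1-3 wt held 57.4 to 76.6 CPM of Eif2s3y and 52.3 to 89.1 CPM of Ddx3y. The part of the wild-type lines in these gaps was not tested. Mid1 (-5.96) and its Y copy Mid1-ps1 (-3.06), which can share reads, were more negative too, with Mid1 at -2.34 in the labelled Mtf2 null and 3.62 in the Jarid2 null.

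The day 0 sample labelled Mtf2 null, left out of the comparison, held 970.0 CPM of Mid1, above the 159 CPM of Pcl1-3 wt at day 0, while the labelled Mtf2 null samples of days 2, 4, and 7 held 16.2, 20.3, and 22.4 CPM. The label of this day 0 sample is in doubt. Among the groups of 4 undifferentiated libraries, no library stood apart by Dixon's test at 95% for the 8 genes whose values there are given, Mtf2, Eno1b, Gata6, Cubn, Hnf4a, Zfp42, Bmp4, and Id1, and groups of 3 were not examined.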

How the results depend on the processing

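The counts of called genes depended strongly on the processing. Against the 1319 genes called, 814 were called with no filter, 804 with a filter of 5 CPM, 2202 with DESeq2, 3101 with all 6 lines in the fit, 98 without the day block, 3875 with the columns as samples (correlation 0.487), and 52 at an adjusted p under 0.01. edgeR called 1016 and the deposited scaling 1445, within 1.5 times. Leaving out 1 day gave 477 (without day 4) to 3417 (without day 2) calls, with 328 higher and 63 lower genes called in all 3 of these fits. The cause of these changes was not tested. Of the 83 named genes called, 68 lost the call without the day block, 27 with day 0 included, 25 without day 4, 22 without a filter, 18 with the first columns alone, and 15 with edgeR, and 0 with DESeq2 or the deposited scaling. Otx2, not called over 3 days, was lower without day 2, and its log2 fold change ran from -0.81 there to 0.98 without day 7. The difference from the Jarid2 null called 458 genes, 304 with edgeR, and with a day left out 29 (day 4), 136 (day 7), and 279 (day 2).

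For the undifferentiated libraries, whose replicate numbers share only a number, a replicate block called 8693 genes against 8813. Same-numbered libraries correlated by -0.185 in the mesoderm and -0.043 in the endoderm series, and a block with the numbers crossed in the mesoderm series, added after seeing the data, called 9063. Leaving out 1 of these libraries gave 7982 to 8822 calls. With 3 samples a side and 6.25 reads at 1 CPM in the shallowest sample, a gene without a call is not shown to be level.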

Other observations

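Day 0 entered no comparison because the labels Mtf2 null and Jarid2 null may be exchanged there. With all 24 bulk samples scaled together, Mid1 was at 972 CPM in the day 0 sample labelled Mtf2 null and at 573 to 837 CPM in the later Jarid2 null samples, whereas the day 0 sample labelled Jarid2 null held 18.7 CPM and the later labelled Mtf2 null samples 17.0 to 23.8 CPM. Mtf2 was at 324 CPM in the day 0 sample labelled Mtf2 null and at 129 CPM in the one labelled Jarid2 null, and the day 0 wild types JM8 and Pcl1-3 wt held 304 and 413 CPM. The values that follow are those of the day 0 sample labelled Mtf2 null against Pcl1-3 wt, with 1 sample a side and no test, and they may belong to the other line. Gata4 was at 18.2 CPM against 0.815 CPM, Cubn at 36.5 CPM against 1.57 CPM, and Col4a1 at 289 CPM against 44.7 CPM. Bmp4 was at 53.3 CPM against 5.79 CPM, its target Id1 at 74.9 CPM against 2.79 CPM, and Zfp42 at 354 CPM against 62.5 CPM. The late products Ttr and Fgb were under 1 CPM on both sides, and the Hox genes Hoxa10 and Hoxd13 were at 0 and 0.388 CPM in the labelled Mtf2 null. Some germline genes went the other way, with Dppa3 at 1.19 CPM against 46.2 CPM and Rhox6 at 0.344 CPM against 3.69 CPM, while Mael was at 23.2 CPM against 6.67 CPM. Of the 1319 genes called over days 2, 4, and 7, 286 had the opposite direction at day 0, as did 5316 of the 12954 tested genes not called.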
